A study of Danio rerio with 6 samples.

Results

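The genes described here are 129 of the 32520 annotated genes in RNASeq libraries from the adult zebrafish telencephalon, chosen by their measured reads, which were plentiful in 2 of the 6 hemispheres sequenced, injured hemisphere 1 and injured hemisphere 3. Expression was expressed as CPM, the reads of a gene divided by the reads on all genes of its library and scaled to 1000000 reads. A gene was a member when it had 10 or more reads in some library and when its CPM plus 0.05, in injured hemisphere 1 and in injured hemisphere 3 alike, was over 2 times the CPM plus 0.05 of every one of the other 4 libraries. Of all genes, 23732 had 10 or more reads in some library. This rule read all 6 libraries, so that the difference between these hemispheres and the others is a description of how the genes were picked and was not tested.

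Polyadenylated RNA was sequenced from 3 injured and 3 control telencephalic hemispheres, 1 library per hemisphere. Injury consisted of a syringe needle inserted into 1 hemisphere of an adult zebrafish, the RNA was extracted at 5 dpl, and the uninjured hemisphere of the opposite side served as control. Strain, sex and age beyond adult are not given in the sources used here, and neither is whether a replicate number stands for a fish. Libraries held between 59675791 and 91663196 reads on genes. Of 16 genes matched to a list of telencephalic transcription factors, 15 were at 1 CPM or more in every library.

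The pineal organ of fish lies on the midline above the forebrain, outside the telencephalon, and its photoreceptor cells are themselves sensitive to light. They use the same kind of cascade as rods and cones of the retina, in which an opsin activates a transducin, the transducin activates phosphodiesterase 6, and the fall in cGMP closes a cation channel. The same cells turn tryptophan into serotonin and serotonin into melatonin, the hormone of the night. Photoreceptors of the retina share most of these genes, but carry rod and cone opsins of their own.

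The 6 genes taken as markers of such cells, *lhx4*, *tph2*, *rbp4l*, *rcvrn3*, *rbp3* and *saga*, were given together with this group of genes. That all 6 were members is therefore no separate support for the name of the group. The LIM homeobox gene *lhx4* (ENSDARG00000039458) was at 4.40, 0.240 and 13.1 CPM in injured hemispheres 1, 2 and 3, against 0.117, 0.130 and 0.140 CPM in control hemispheres 1, 2 and 3. Transcripts of *rcvrn3* (ENSDARG00000009637), a recoverin and thus a calcium sensor of photoreceptors, were at 57.2, 0.240 and 134 CPM in injured hemispheres 1, 2 and 3, and at 0.251, 0.579 and 0.127 CPM in control hemispheres 1, 2 and 3. For *saga* (ENSDARG00000012610), a visual arrestin that shuts off activated opsin, the values were 35.9, 0.0764 and 82.4 CPM in injured and 0.151, 0.331 and 0.0634 CPM in control hemispheres, in the same order. Injured hemisphere 2 was thus at the level of control hemispheres for *rcvrn3* and *saga*, and somewhat above them for *lhx4*. In bulk RNA a change in the number of cells of a type and a change in the RNA per cell cannot be told apart.

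**Figure D1:**
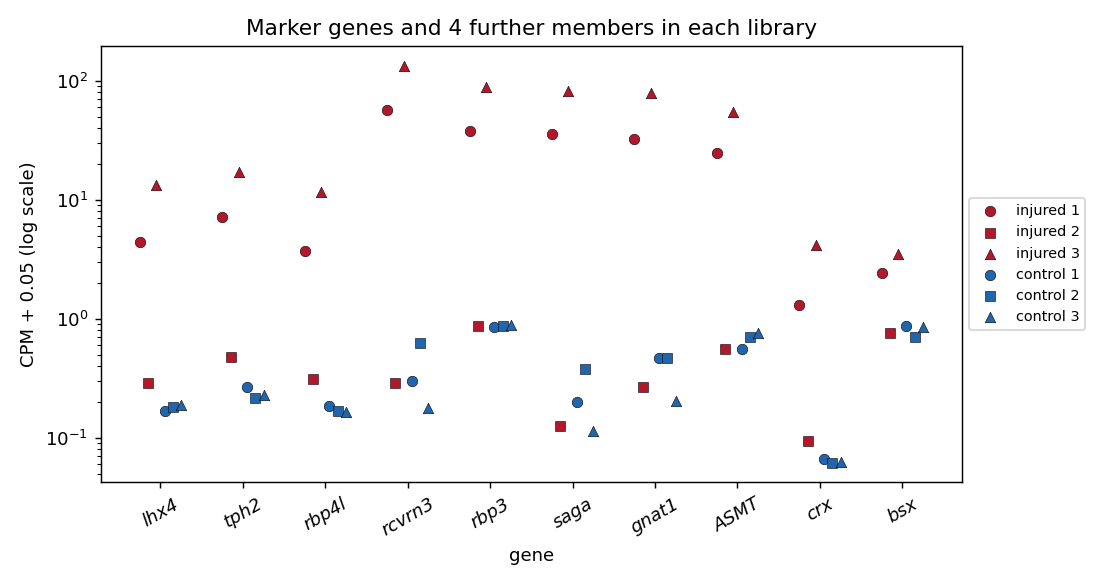
CPM plus 0.05 on a log scale for the 6 marker genes and 4 further members, *gnat1*, *ASMT*, *crx* and *bsx*, with 1 point per library, injured hemispheres in red and control hemispheres in blue. Injured hemispheres 1 and 3 lie apart from the other 4 libraries for every gene drawn, with *saga* at 35.9 and 82.4 CPM in them and at most 0.331 CPM elsewhere.

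Over all 129 genes, the summed expression was 912, 79.1 and 1920 CPM in injured hemispheres 1, 2 and 3, against 77.6, 80.3 and 68.9 CPM in control hemispheres 1, 2 and 3. These genes therefore took 0.0912% and 0.192% of the reads on genes in injured hemispheres 1 and 3, and 0.00689% to 0.00803% in the other 4 libraries. The sum was 11.9 times the mean of the other 4 libraries in injured hemisphere 1 and 25.1 times that mean in injured hemisphere 3. The median member was at 1.90 CPM in injured hemisphere 1 and 4.08 CPM in injured hemisphere 3, and at 0.127 to 0.151 CPM in the others. For the smaller of its values in injured hemispheres 1 and 3, each with 0.05 added, a member exceeded the highest other library by 2.02 to 99.0 times, with a median of 5.35. This factor was above 10 for 45 members and above 4 for 79.

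**Figure D2:**
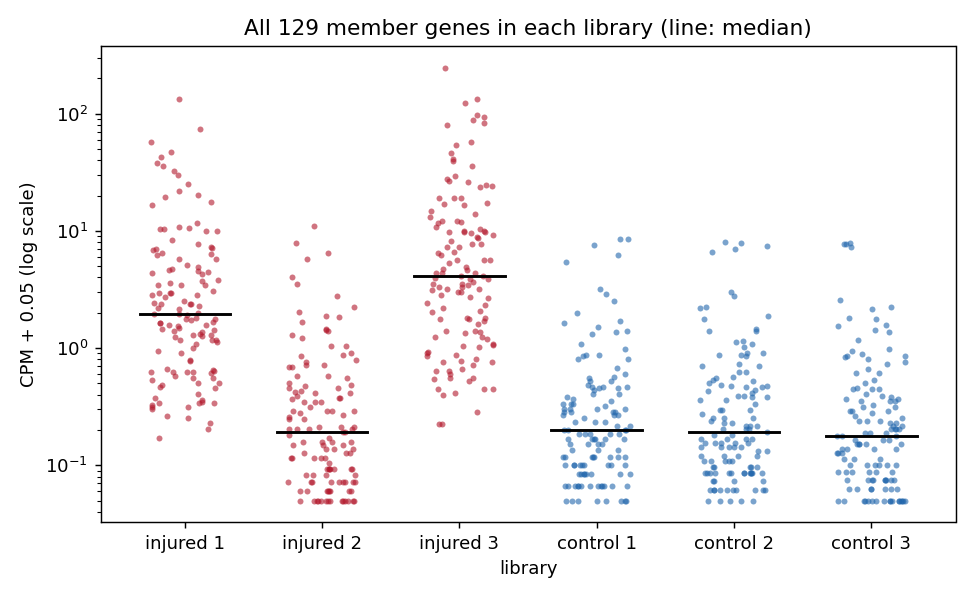
CPM plus 0.05 on a log scale for each of the 129 member genes in each library, injured hemispheres in red and control hemispheres in blue, with a line at the median. The cloud is raised in injured hemispheres 1 and 3, with medians of 1.90 and 4.08 CPM before 0.05 was added, while injured hemisphere 2 and the control hemispheres have medians between 0.127 and 0.151 CPM.

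Genes lay on both sides of the threshold without a gap. The members just inside it were *SLC43A3*, *si:dkeyp-80c12.5* and 1 of 2 members named *LRIT1* (ENSDARG00000099406), at 2.02, 2.04 and 2.05 times the highest other library. The genes just outside it, which are no members, were *pde6ha*, *mpp4a* and *gnat2*, at 1.99, 1.99 and 1.97 times. *gnat2* encodes the transducin of cones and *pde6ha* an inhibitory subunit of the cone phosphodiesterase, so that the rule leaves out genes of the same cascade as its members. All comparisons of CPM here are between libraries for 1 gene, since CPM does not correct for the length of a gene.

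The photoreceptor and pineal genes were read from 7 lists, on opsins of the pineal and brain, phototransduction, the outer segment and cilium, the retinoid cycle, serotonin and melatonin synthesis, transcription factors and the ribbon synapse. They matched 170 genes, and 52 of the 129 members were among them. One further member, *opn1lw1*, belonged to the list of retinal opsins, and 76 were in no list. No member came from the lists for habenula, choroid plexus, pituitary, skin, muscle and skull, erythrocytes, inner retina and lens, or telencephalon. These lists matched 3 to 21 genes each, and members were 129 of the 23732 genes with 10 or more reads in some library. At that share few members or none would fall in lists of this size.

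Of the cone opsins, only *opn1lw1*, a long-wavelength opsin, was a member, at 0.455, 0.0436 and 1.03 CPM in injured hemispheres 1, 2 and 3, and at 0, 0.0355 and 0 CPM in control hemispheres 1, 2 and 3. The 6 other genes matched to the list of retinal opsins stayed at or below 0.158 CPM in every library. The list as a whole summed to 0.635, 0.327 and 1.28 CPM in injured and 0.302, 0.236 and 0.190 CPM in control hemispheres. Of 13 opsins matched for the pineal and brain, none was a member. *parietopsin*, an opsin of the pineal complex, was at 0.827, 0.240 and 1.55 CPM in injured and 0.318, 0.485 and 0.444 CPM in control hemispheres, and *parapinopsinb* at 18.5, 11.3 and 23.5 CPM in injured and at most 13.8 CPM in control hemispheres. For both genes injured hemispheres 1 and 3 were above the other 4 libraries, by less than the rule asks.

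Phototransduction supplied the largest group, 25 of the 47 genes matched. *gnat1* (ENSDARG00000044199), which encodes the alpha subunit of rod transducin, was at 32.5, 0.218 and 79.3 CPM in injured hemispheres 1, 2 and 3, against 0.419, 0.414 and 0.152 CPM in control hemispheres 1, 2 and 3. Injured hemisphere 2 lay within the range of the control hemispheres. The beta subunit gene *gnb3a*, the gamma subunit gene *GNGT2* (ENSDARG00000010680) and *pdcb*, whose phosducin binds the beta and gamma subunits, were also members. *GNGT2* was at 1.43 and 0.712 CPM in injured hemispheres 1 and 3 and had no read in any other library, where 3 reads, the limit that a count of 0 allows, correspond to 0.0327 to 0.0503 CPM. *rgs9bp*, the membrane anchor of the protein that switches transducin off, was likewise without a read in these 4 libraries. It was at 0.575 CPM in injured hemisphere 1 and 1.31 CPM in injured hemisphere 3.

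Rod catalytic, cone catalytic and inhibitory subunits of phosphodiesterase 6 were represented, while the list entry *pde6a* matched no gene. *PDE6B*, a rod catalytic subunit, was the name of 2 members. ENSDARG00000000380 was at 20.1, 1.84 and 41.0 CPM in injured and 1.47, 1.71 and 1.71 CPM in control hemispheres. ENSDARG00000011671 was at 10.3, 2.73 and 19.0 CPM in injured and 1.34, 1.35 and 1.38 CPM in control hemispheres, so that for this gene injured hemisphere 2 was also above all control hemispheres. The cone catalytic subunit *PDE6C* was at 21.7, 1.80 and 45.6 CPM in injured and 2.46, 2.17 and 1.74 CPM in control hemispheres. The inhibitory subunits *PDE6G* and *PDE6H* were members too, with *PDE6G* at 73.3, 6.44 and 124 CPM in injured and 5.36, 6.49 and 7.30 CPM in control hemispheres. Genes of rod and of cone type thus occur side by side among the members.

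The same held for the channel that cGMP opens. Members were *CNGA1*, a rod channel subunit and the name of 2 genes, *cngb3.1* from the list, and *cngb3.2*, whose human counterpart is a cone subunit. *CNGA1* (ENSDARG00000029898) was at 3.77, 0.240 and 9.10 CPM in injured and 0.218, 0.0946 and 0.178 CPM in control hemispheres. *SLC24A1*, the exchanger that removes calcium from outer segments, was at 10.2, 1.41 and 18.9 CPM in injured and 0.754, 1.10 and 0.901 CPM in control hemispheres. *gucy2f*, a guanylate cyclase that restores cGMP, and its calcium-binding activator *guca1a* were members as well. *gucy2f* was at 4.30, 0.295 and 8.15 CPM in injured and 0.251, 0.378 and 0.330 CPM in control hemispheres.

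Genes that end the light response made up much of the rest. *grk7a*, which encodes an opsin kinase of cones, had the highest factor of all members over the other 4 libraries. Its expression was 11.5, 0.0655 and 29.4 CPM in injured and 0.0670, 0.0591 and 0.0254 CPM in control hemispheres. *grk7b* and *grk1b*, a further pair of opsin kinases, and the arrestins *sagb* and *ARR3* (ENSDARG00000056511) were members too. Cone arrestin *ARR3* was at 10.6, 0.109 and 35.4 CPM in injured and 0.385, 0.118 and 0.0888 CPM in control hemispheres. Beside *rcvrn3*, the recoverins *rcvrnb* and *rcvrna* belonged to the group. *rcvrnb* was at 42.3, 0.131 and 97.4 CPM in injured and 0.168, 1.41 and 0.216 CPM in control hemispheres. Control hemisphere 2 was here above the other control hemispheres, as it also was for *rcvrn3* and *saga*.

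Among genes for the synthesis of serotonin and melatonin, 4 of 16 matched were members. *ASMT* (ENSDARG00000098249), for the last step to melatonin, was at 24.9, 0.502 and 54.4 CPM in injured hemispheres 1, 2 and 3, against 0.503, 0.650 and 0.711 CPM in control hemispheres 1, 2 and 3. The tryptophan hydroxylase genes *tph2* and *TPH1* (ENSDARG00000029432), for the first step to serotonin, were at 7.08, 0.425 and 17.0 CPM and at 6.18, 0.982 and 16.5 CPM in injured hemispheres. In control hemispheres they were at 0.218, 0.165 and 0.178 CPM and at 1.26, 1.03 and 0.799 CPM. *DDC*, the decarboxylase between these steps, was a member by a narrow margin, at 16.5, 7.77 and 25.8 CPM in injured and 6.12, 7.36 and 7.75 CPM in control hemispheres.

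The gene *aanat2*, which in fish encodes the enzyme that sets the rate of melatonin synthesis in the pineal, was not a member. Its expression was 6.59, 2.83 and 16.1 CPM in injured and 2.83, 3.82 and 3.39 CPM in control hemispheres. Injured hemispheres 1 and 3 were the highest libraries, and injured hemisphere 2 was level with the lowest control hemisphere. The log2 fold change of injured over control hemispheres was 1.28 (SE 0.55, adjp = 0.167 in edgeR's quasi-likelihood F-test). Of the 16 genes, 2 were called higher and none lower in that test, beside 11.6% and 4.82% of all genes, and both were members.

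Retinoids are carried and regenerated by the products of *rbp3*, *rbp4l*, *rdh5* and *rlbp1a*, the 4 members among 24 matched genes of the retinoid list. *rbp3* (ENSDARG00000059163), the retinoid-binding protein of the matrix around outer segments, was at 37.8, 0.818 and 88.8 CPM in injured and 0.804, 0.816 and 0.837 CPM in control hemispheres. Injured hemisphere 2 and the control hemispheres thus agreed closely for this gene. *rbp4l*, related to the retinol carrier of the blood, was at 3.69, 0.262 and 11.6 CPM in injured and 0.134, 0.118 and 0.114 CPM in control hemispheres. The retinol dehydrogenase gene *rdh5* was at 9.86, 0.0982 and 23.6 CPM in injured and 0.151, 0.177 and 0.0508 CPM in control hemispheres. *CYP27C1*, which in zebrafish converts vitamin A1 to A2, was in no list but a member, at 30.1, 10.9 and 57.1 CPM in injured and 8.45, 7.82 and 7.66 CPM in control hemispheres. Retinoid genes outside the rule included 1 of 3 genes named *RPE65* (ENSDARG00000007480), an isomerase, at 22.5, 9.67 and 90.5 CPM in injured and 14.1, 17.2 and 5.38 CPM in control hemispheres.

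Transcription factors of photoreceptor and pineal cells gave 6 members, *lhx4*, *crx*, *bsx*, *NR2E3*, *noto* and *rx2*, of 21 genes matched. The cone-rod homeobox gene *crx* (ENSDARG00000011989) was at 1.25, 0.0436 and 4.08 CPM in injured and 0.0168, 0.0118 and 0.0127 CPM in control hemispheres, or at 1 read per control library. A gene with the human name *CRX* (ENSDARG00000043483) was also a member, at 4.70, 1.99 and 12.0 CPM in injured and 1.59, 1.08 and 0.685 CPM in control hemispheres. *bsx*, a homeobox gene of the pineal and hypothalamus, was at 2.37, 0.709 and 3.48 CPM in injured and 0.821, 0.650 and 0.799 CPM in control hemispheres. The homeobox genes *noto*, required for pineal neurons in zebrafish embryos, and *rx2*, a factor of the eye field, were scarce, with at most 0.506 and 0.237 CPM. *NR2E3*, a nuclear receptor of rod photoreceptors, reached 1.72 CPM in injured hemisphere 3.

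Structural genes of the outer segment and cilium gave 10 members of 28 genes matched. They were *ABCA4*, which moves retinal derivatives across disc membranes, *aipl1*, a chaperone of phosphodiesterase 6, the photoreceptor cadherin *CDHR1* (ENSDARG00000004643), *tulp1b*, *unc119c*, *impg1a*, *impg2a*, *FSCN2* (ENSDARG00000059574), *rp1* and *prph2la*, so called in the table of gene names. *aipl1* was at 3.43, 0.0655 and 7.64 CPM in injured and 0.0670, 0.118 and 0.0127 CPM in control hemispheres. Of the ribbon synapse list, with 21 genes matched, *CPLX4* (ENSDARG00000059978), *cplx4c* and *slc1a7a* were members. *CPLX4*, a complexin of photoreceptor terminals, was at 3.43, 0.524 and 9.68 CPM in injured and 0.352, 0.449 and 0.140 CPM in control hemispheres. Synaptic genes of the same list that the telencephalon uses widely, such as *rims2a* at 56.5 to 66.9 CPM over the 6 libraries, were not.

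Among the 76 members in no list, several have known parts in photoreceptors and were picked out after their values were seen. These were *irbpl*, a second gene of the *rbp3* kind, *arl3l1*, related to a GTPase that delivers lipid-linked proteins to the cilium, *rpgrip1*, a scaffold of the connecting cilium, *EGFLAM*, a matrix protein of the photoreceptor synapse in mice, *NXNL1*, known in mice for a factor from rods that sustains cones, *pcare2*, the *LRIT1* and *LRIT2* genes, and *RCVRN* (ENSDARG00000019902), a recoverin. *irbpl* was at 5.75, 0.295 and 13.8 CPM in injured and 0.352, 0.248 and 0.558 CPM in control hemispheres, and *arl3l1* at 5.68, 0.109 and 11.8 CPM in injured and 0.184, 0.142 and 0.127 CPM in control hemispheres. Other members with high values were *ppdpfa*, *syt5a*, a synaptotagmin, *GNG11*, a gamma subunit of G proteins, and *misp3*. *GNG11* was at 8.30, 0 and 24.5 CPM in injured and 0.0670, 0.0946 and 0.0127 CPM in control hemispheres. For 6 members no name was found, and 1 of these, ENSDARG00000102176, was at 17.6, 4.03 and 27.5 CPM in injured and 8.51, 8.01 and 2.18 CPM in control hemispheres.

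Members differed in how much they were read in the other 4 libraries. The highest of these 4 values was below 0.1 CPM for 43 members, from 0.1 to 1 CPM for 65 and 1 CPM or more for 21. In CPM of the gene total, injured hemisphere 2 lay within the range of the control hemispheres for 65 members, above all of them for 37 and below all of them for 27. The rule limits how high injured hemisphere 2 could be, as it limits each control hemisphere. With injured hemisphere 2 left out of the rule, 451 genes met it, so that genes high in this library were removed by the choice. Within that limit, the rule does not set where injured hemisphere 2 stands among the control hemispheres. When injured hemisphere 2 alone was set against the 3 control hemispheres in edgeR, the median log2 fold change of the 82 members tested was -0.030, beside 0.0090 for all 23288 genes. Only *si:dkey-188i13.8* (ENSDARG00000092725), which the table of gene names calls the interferon-inducible *ifi27.5*, was called higher, and 6.22% of all genes were. At an unadjusted *p* below 0.05 there were 8 members, and the spread of the lone library was taken to be that of the control hemispheres.

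Expression was higher in injured hemisphere 3 than in injured hemisphere 1 for 121 of the 129 members. The rule fixes that both are high and leaves their ratio free. Over members, the ratio of CPM plus 0.05 had a median of 2.04 and quartiles of 1.69 and 2.39, whereas it had a median of 1.01 and quartiles of 0.939 and 1.09 over the 18606 genes with 50 or more reads in both libraries. Of the members, 92 had a ratio between 1.5 and 3. The median was 2.22 for the 52 members on the photoreceptor and pineal lists and 1.93 for the 77 others. With 1 library on each side no test is possible, and genes are not independent replicates. The 95% counting interval (Clopper-Pearson, for counting error only) included the median for 60 members and not for the others. For *rcvrn3* the ratio of CPM was 2.34 (2.26 to 2.42).

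**Figure D3:**
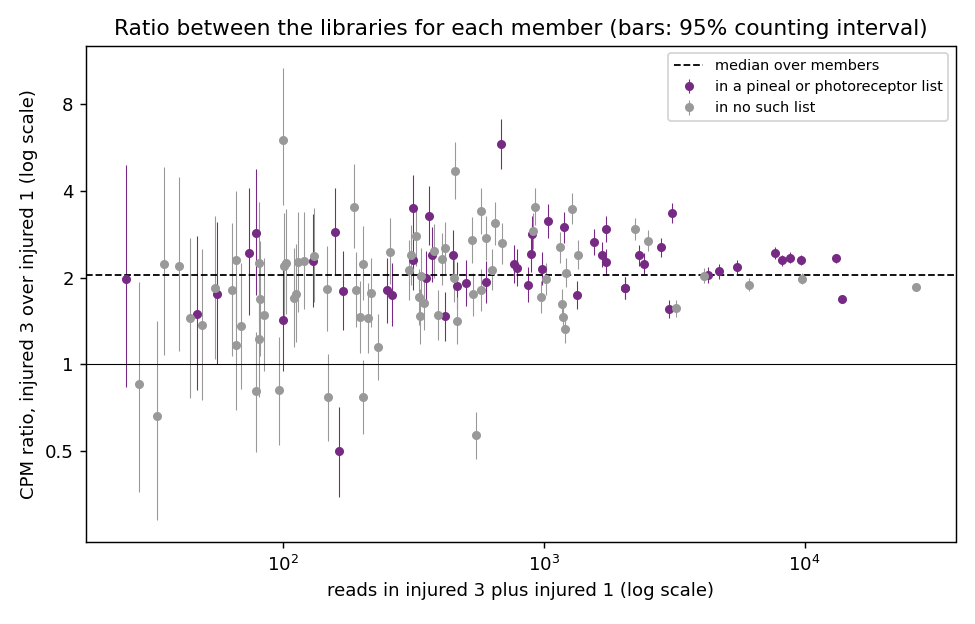
CPM ratio of injured hemisphere 3 over injured hemisphere 1 for each member, on a log scale, against the reads of the gene in both libraries, with 95% counting intervals. Members on a pineal or photoreceptor list are purple and the others grey, and most of both lie near the dashed median of 2.04, with 8 members below 1.

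The largest ratios among members with 50 or more reads in the 2 libraries together were those of *unc119c*, ENSDARG00000057055, *si:ch211-263p13.7*, *cngb3.2* and *GLMN*. Here *unc119c*, a trafficking factor for lipid-linked photoreceptor proteins, had a ratio of 5.66, with 1.52, 0.109 and 8.84 CPM in injured and 0.235, 0.366 and 0.343 CPM in control hemispheres. The smallest were those of *GNGT2*, *NPTX2*, *zp3c*, *LRIT1* (ENSDARG00000019179) and *si:dkeyp-80c12.5*. *GNGT2*, the gamma subunit of cone transducin, was at 1.43 CPM in injured hemisphere 1 and 0.712 CPM in injured hemisphere 3, a ratio of 0.516. *NPTX2*, a neuronal pentraxin, was at 4.62, 0.327 and 2.63 CPM in injured and 0.268, 0.307 and 0.482 CPM in control hemispheres. The ratio was thus not common to all members, and for the cone genes *GNGT2* and *ARR3* it was 0.516 and 3.34. Both of these genes were higher in injured hemispheres 1 and 3 than in every other library.

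Some markers of the habenula, which lies beneath the pineal stalk, were high in injured hemisphere 1 but not in injured hemisphere 3, while most of its list was not. The share of all genes that were so high in injured hemisphere 1 alone was not counted. Of 16 genes matched, 5 exceeded every other library over 2 times in injured hemisphere 1 by the same measure, namely *gng8*, *kiss1*, *POU4F1*, *GPR151* and 1 of 2 genes named *CPNE4*, and none did in injured hemisphere 3. *gng8* was at 3.89, 0.0873 and 0.158 CPM in injured and 0.101, 0.201 and 0.102 CPM in control hemispheres, and *POU4F1* at 2.06, 0.0982 and 0.0316 CPM in injured and 0.0335, 0.0236 and 0.0508 CPM in control hemispheres. The list as a whole, which holds genes that the telencephalon also expresses, summed to 276 to 348 CPM in injured and 313 to 337 CPM in control hemispheres. *POU4F2*, a gene of the inner retina list picked out after its values were seen, was at 3.86 CPM in injured hemisphere 1 and at or below 0.131 CPM in every other library. The inner retina and lens list summed to 29.2 to 35.2 CPM in injured and 26.6 to 30.2 CPM in control hemispheres, and *CRYAA*, a lens crystallin, was at or below 0.0240 CPM throughout. The list for skin, muscle and skull summed to 193, 219 and 193 CPM in injured and 118, 109 and 82.7 CPM in control hemispheres. Most of this sum was *krt8*, at 140, 179 and 139 CPM in injured and 76.4, 87.5 and 64.1 CPM in control hemispheres. Of its 14 genes tested, 2 were called higher in edgeR, *krt8* and *acana*, beside 11.6% of all genes. Choroid plexus, pituitary and erythrocyte lists had no gene called in the edgeR comparison of injured with control hemispheres, at 5, 3 and 3 genes tested. The part of neighbouring tissue in the reads of the members was not tested.

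**Figure D4:**
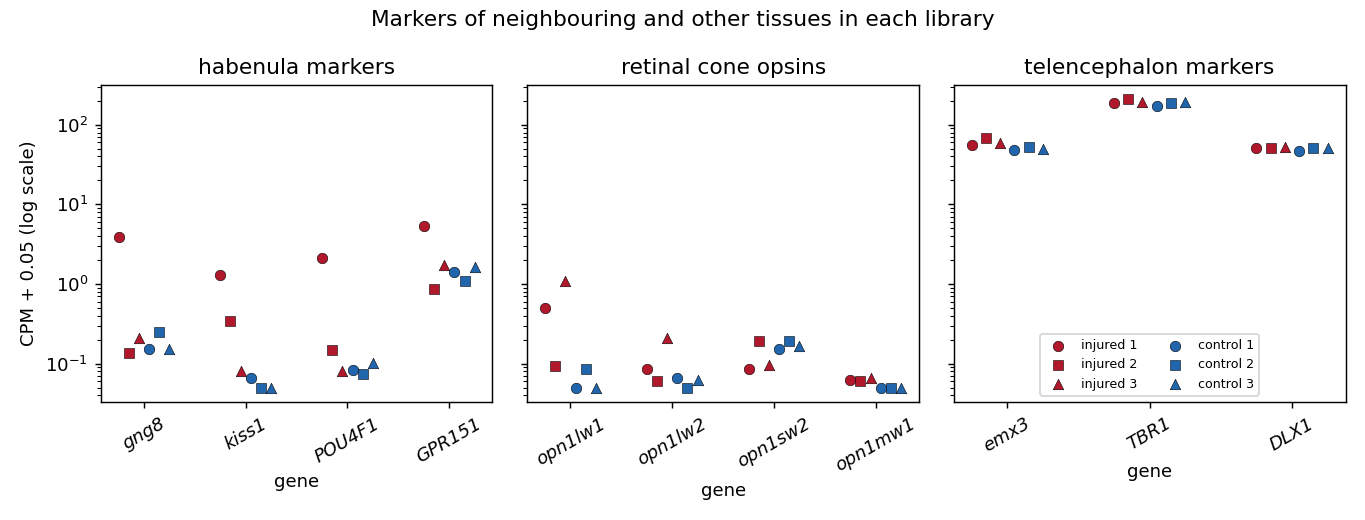
CPM plus 0.05 on a log scale for markers of the habenula, for cone opsins of the retina and for genes of the telencephalon, 1 point per library, injured hemispheres in red and control hemispheres in blue. The habenular genes drawn are among the 5 of 16 that exceeded every other library over 2 times in injured hemisphere 1. Of these, *gng8* is at 3.89 CPM there against at most 0.201 CPM in the other libraries. *opn1lw2*, *opn1sw2* and *opn1mw1* stay at or below 0.158 CPM and the telencephalic genes are level.

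The study compared injured with control hemispheres, and members entered that comparison like any other gene. edgeR's filter, which asks for a minimum number of reads in at least 3 libraries, kept 82 of the 129 members and left out 47, such as *crx*, *grk7a* and *GNGT2*, which had too few reads outside injured hemispheres 1 and 3. Of the 82, 42 were called higher (adjp below 0.05, Benjamini-Hochberg over 22558 genes) and none lower, where 11.6% of all genes tested were called higher and 4.82% lower. The median log2 fold change of the members tested was 2.99, and that of all genes tested -0.0038. These values follow from the choice of the members. With the TMM factors of edgeR, which lower injured against control libraries slightly, every injured library was above every control library for 31 of the 129 members, against 37 in CPM of the gene total. With the same factors this was so for 20.3% of all genes tested. Injured hemispheres 1 and 3 were each above the other 4 libraries for all 129 members by the rule itself, and for 6.92% of all genes tested.

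The calls depended on single libraries. Without injured hemisphere 2, 125 of 128 members were called higher, beside 7.69% of all genes. That fit sets injured hemispheres 1 and 3 against the control hemispheres, as the rule does, so its count follows from the choice of the members. Without injured hemisphere 1, 3 of 82 were called, *si:dkey-188i13.8*, *tph2* and *PDE6B* (ENSDARG00000011671), beside 9.24% of all genes. Without injured hemisphere 3, 3 of 82 were called, *si:dkey-188i13.8*, *slc1a7a* and *PDE6B* (ENSDARG00000011671), beside 8.29% of all genes. Without control hemisphere 1, 2 of 129 were called, *si:dkey-188i13.8* and *zp3c*, beside 6.47% of all genes. Without control hemispheres 2 and 3 in turn, only *si:dkey-188i13.8* was called, of 128 and 129 members, beside 8.20% and 6.17% of all genes. *si:dkey-188i13.8* was at 2.70, 1.18 and 3.83 CPM in injured and 0.285, 0.343 and 0.317 CPM in control hemispheres. With replicate number as a block, 70 of 82 members were called higher, beside 19.9% of all genes, and DESeq2 called 94 of 113, beside 14.2%.

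**Figure D5:**
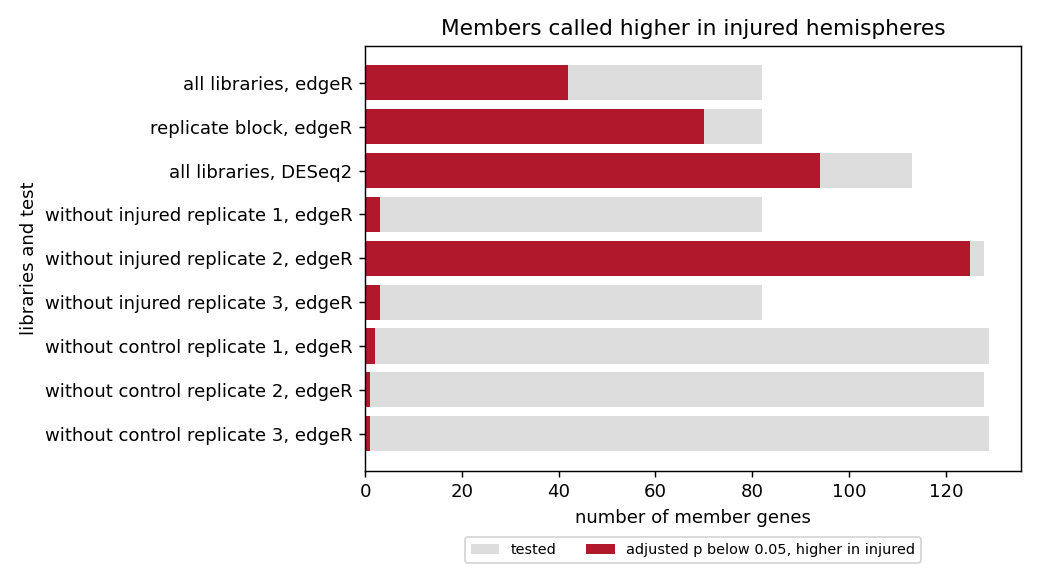
Number of member genes tested (grey) and called higher in injured than in control hemispheres (red, adjusted *p* below 0.05) with all libraries in edgeR, with the replicate block, in DESeq2 and with each library left out. The number called was 42 with all libraries in edgeR, 125 without injured hemisphere 2, and between 1 and 3 without any other library.

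Over the 7 photoreceptor and pineal lists, 140 of the 170 genes were tested, and 34 were called higher and 3 lower, beside 11.6% and 4.82% of all genes. With replicate number as a block, 54 were called higher. Members made up 25 of the 34, and their calls follow from the choice of the members. Of the 105 list genes tested that were no members, 35 had injured hemispheres 1 and 3 each above the other 4 libraries with TMM factors. This was so for 6.92% of all genes tested. The lists were chosen with earlier results known, and the difference was not tested. In edgeR, 9 of the 105 were called higher, beside 11.6% of all genes. These 9 were *gnat2*, *prom1b*, *IMPG1* (ENSDARG00000074839), *RPE65* (ENSDARG00000094752), *stra6l*, *BCO1*, *rx1*, *TBX2* (ENSDARG00000006120) and *insm1a*. *stra6l*, *BCO1*, which cleaves carotenoids, and *rx1* were as high in injured hemisphere 2 as in injured hemispheres 1 and 3. *rx1*, a homeobox gene of the eye field, was at 1.21, 1.19 and 1.08 CPM in injured and 0.519, 0.638 and 0.571 CPM in control hemispheres, a log2 fold change of 0.95 (adjp = 0.0132, edgeR). The 3 genes called lower were *opn4xa*, *cplx3b* and *syt5b*. *opn4xa*, a melanopsin, was at 12.5, 9.00 and 10.1 CPM in injured and 16.3, 14.2 and 15.2 CPM in control hemispheres, a log2 fold change of -0.59 (adjp = 0.0236, edgeR).

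By list, and beside 11.6% of all genes called higher, phototransduction had 14 of 34 genes tested called higher and a median log2 fold change of 2.24, and the outer segment list 5 of 21 and 1.03. The retinoid list had 7 of 22 and 0.64, the transcription factors 4 of 15 and 0.31, the serotonin and melatonin list 2 of 16 and 0.31, and the ribbon synapse list 2 of 19 and -0.054. A further 2 genes of the ribbon synapse list were called lower, beside 4.82% of all genes. None of 13 opsins of the pineal and brain was called higher, with a median of 0.13. Every list but that of these opsins holds members, whose high values follow from the rule. The counts and medians of those lists are therefore no separate support for them. In phototransduction, *gnat2* was the only gene called higher that was no member. Over the 7 lists, 70 genes, members among them, were called higher without injured hemisphere 2, beside 7.69% of all genes. The count was 9 without injured hemisphere 1 and 5 without injured hemisphere 3, beside 9.24% and 8.29% of all genes. It was 2, 5 and 1 without control hemispheres 1, 2 and 3 in turn, beside 6.47%, 8.20% and 6.17% of all genes.

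In the order of protein-coding genes in RefSeq (GRCz12tu, another assembly than that of the files), 67 members could be placed by symbol, and 3 pairs of them were next to each other. These were *rbp3* with *irbpl*, *cngb3.1* with *cngb3.2*, and *rx2* with *cplx4c*. The first pair codes for proteins of the same kind, as does the second, and how reads were divided between such copies was not tested.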

How the data were processed

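RNASeq of 3 injured and 3 control telencephalic hemispheres at 5 dpl was analysed. The authors mapped reads to GRCz11 with STAR and took gene counts from the union mode of HTSeq, which the authors deposited unnormalized, 1 file per library. Tool versions, annotation release and strand setting are not given in the sources used here, so counts of overlapping genes are uncertain. Reads on no gene (27.2% to 29.7% of a library) or on more than 1 gene (1.45% to 1.53%) were left out.

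CPM were computed from the gene total of each library. Genes kept by filterByExpr were tested with edgeR 4.0.16 in R 4.3.3 (glmQLFit and glmQLFTest, TMM factors, a model of injury alone, threshold 0.05 after Benjamini-Hochberg adjustment). DESeq2 1.42.0, Bonferroni adjustment, RLE or no normalization factors, no filter, a replicate block and each library left out were alternatives. The *p*-values measure the spread between these libraries. The fit was tested on simulated data for injured against control hemispheres, 22558 genes of which 200 were changed 2-fold. It called 69.5% of the changed genes that passed the filter, and 3.52% of its calls were genes not changed. The fit of injured hemisphere 2 alone was added after the data were seen.

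Members and lists were chosen with earlier results of these data known. The rule named the 6 markers, members on a list, the 25 members with the highest smaller CPM of injured hemispheres 1 and 3, the 5 largest and 5 smallest ratios, and the 3 genes on each side of the threshold. Of 276 list entries, 251 matched a gene, by symbol or by human name. Of 32520 identifiers, 29279 had a name in the supplementary tables or the table of gene names, 123 of the 129 members among them. Some genes that enter the counts and sums are not reported here by name.

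Residuals of injured and control libraries with the same number correlated at 0.519, 0.396 and 0.321 across genes, whereas unlike numbers gave -0.361 to -0.0832. Residuals were taken from the mean of each group, so positive values at like numbers make those at unlike numbers negative. Because of the values at like numbers, the number was the block of the alternative fit, while the fit reported first has no block.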

Additional observations from a re-analysis of the deposited data

How the results depend on the processing

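The number of members was 196 with a factor of 1.5, 79 with a factor of 4 and 85 with 0.5 CPM added, of which 129, 79 and 85 were among the 129. It was 130 to 139 with a control hemisphere left out of the rule, and 451 without injured hemisphere 2. With TMM sizes or 100 reads it stayed within 1.5 times of 129. The number of members called higher was 67 without a filter, 70 with the replicate block, 94 in DESeq2, 1 to 125 with 1 library left out, 1 without injured hemispheres 1 and 3, and 0 under Bonferroni adjustment in edgeR, where 78 had an unadjusted *p* below 0.05. Genes of the 7 lists called higher numbered 54 with the replicate block, 54 in DESeq2, 1 to 70 with 1 library left out, 4 without injured hemispheres 1 and 3, and 0 under Bonferroni adjustment in edgeR, where 69 of 140 had an unadjusted *p* below 0.05. All genes called higher, 2628 in edgeR, were 4490 with the replicate block, 1419 to 2106 with 1 library left out, 1448 without injured hemispheres 1 and 3, and 51 under Bonferroni adjustment. RLE or no normalization factors kept these 3 counts within 1.5 times. For the fit with all libraries, the share of all genes with an unadjusted *p* below 0.05 was not counted. The median ratio of injured hemisphere 3 over injured hemisphere 1 was 2.24 after the mean of the other libraries was subtracted and 2.17 for members with 100 or more reads in both. Apart from the construction of these settings, causes were not tested. With all libraries, a member with few reads outside injured hemispheres 1 and 3 passes the filter of edgeR only if it reaches the minimum count in 3 libraries. The filter was set anew for each fit and asked for fewer libraries when 1 was left out. Without a control hemisphere or injured hemisphere 2, 128 or 129 members were therefore tested, against 82 with all libraries.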
